A study of Mus musculus with 4 samples.

Results

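Oxidative phosphorylation (OXPHOS) subunits were examined in keratinocytes, the cells that build the epidermis, by taking the genes for the respiratory complexes by name and setting those of the nuclear genome beside those of the mitochondrial genome. The members were the symbols of complex I (Ndufa, Ndufb, Ndufc, Ndufs and Ndufv followed by a number), complex II (Sdha to Sdhd), complex III (Uqcr), complex IV (Cox4 to Cox8) and complex V (Atp5, without pseudogenes), plus the mRNAs of the mitochondrial genome. That gave 96 members of 45803 symbols, of which 83 were nuclear and 13 mitochondrial. The study profiled newborn mice at postnatal day 0 by RNA sequencing. The cKO libraries (genotype K14Cre,Mettl14F/F) came from animals with both Mettl14 alleles floxed, and the control libraries (K14Cre,Mettl14F/+) from animals with a single floxed allele beside a wild-type one. There were 2 libraries of each, numbered 1 and 2 in the labels. Both genotypes carried Cre driven by the keratin 14 promoter, which is active in basal keratinocytes, so cells that never used that promoter keep Mettl14. Nothing in the labels ties the libraries to separate animals, so p-values cover only how far these 4 libraries vary, and part of that may be technical. Mettl14 encodes a subunit of the complex that writes N6-methyladenosine on RNA, and measured 5.89 and 3.79 FPKM in cKO libraries 1 and 2, against 7.00 and 6.40 FPKM in control libraries 1 and 2.

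Complexes I to IV pass electrons from NADH and succinate to oxygen and, except for complex II, pump protons across the inner mitochondrial membrane, and complex V uses the returning protons to make ATP. Complexes I, III, IV and V are built from subunits of both genomes, while complex II is wholly nuclear. The mitochondrial mRNAs are cut from long transcripts that cover the mitochondrial genome, whereas nuclear subunits are made in the cytosol and imported.

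The deposited values, given per transcript, are read here as FPKM, fragments scaled to transcript length and sequencing depth, and were added up per symbol. The low values implied a depth of 16635000 and 25390000 reads or fragments in cKO libraries 1 and 2, and of 17205000 and 23605000 in control libraries 1 and 2. The libraries stood apart by replicate number as well as by genotype. Over the 13817 genes tested, deviations from the group mean correlated at r = 0.722 between cKO 1 and control 1, a description across genes, which are not independent replicates. For that reason the text also gives the difference between the cKO and control library of the same number, called within number 1 or 2. The keratinocyte markers (Krt5, Krt14, Trp63, Krt10 and Lor) were all detected, and 3 of the 5 were lower in cKO within both numbers. Krt14 measured 1435 and 2195 FPKM in cKO libraries against 2176 and 2550 FPKM in control libraries. Krt10 measured 12142 and 6217 FPKM in cKO libraries 1 and 2, against 15342 and 5382 FPKM in control libraries 1 and 2. It was thus higher in both libraries numbered 1, and higher in cKO within number 2. Lor was higher in cKO within number 1 (125 against 105 FPKM). Brown adipocyte Ucp1, a defining marker, was at most 0.12 FPKM in any library, while Cidea and Elovl3 of the same list of 5 brought its sum to 40.8 and 82.8 FPKM in cKO libraries, against 40.6 and 60.3 FPKM in control libraries. The 8 skeletal muscle markers, of which 2 passed the filter, summed to 5.86 and 4.16 FPKM in cKO, against 5.65 and 4.59 FPKM in control, with Ckm at no more than 0.57 FPKM. The 5 leukocyte markers, of which 5 of 5 were lower in both cKO libraries than in both controls (16.6% of all genes), summed to 147 and 229 FPKM in cKO libraries and to 257 and 314 FPKM in control libraries. The erythroid markers Hbb-bs, Hba-a1 and Alas2 summed to 1070.0 and 347.9 FPKM in cKO libraries, against 285.1 and 732.5 FPKM in control libraries. The part of these cells in the results was not tested. In such bulk samples, fewer cells of a type and less RNA per cell cannot be told apart.

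The sequences of the mitochondrial members come first, because they bear on which values can be read. A stretch of mouse chromosome 1 holds pseudogene copies of mitochondrial genes, and the annotation (GENCODE M21, GRCm38) lists them there side by side in reverse order. When the most abundant transcript of each member was aligned to all annotated transcripts of other genes, mt-Co2 matched Gm28661 at 100% over 99.6% of its length, mt-Atp6 matched Gm10925 at 100% over 99.6%, and mt-Co3 matched Gm28437 at 100% over 99.9%. Likewise mt-Nd4l matched Gm10222 at 100% over 99% of its length, and mt-Nd3 matched Gm28438 at 99.71% over 99.1%. Of mt-Co1 and mt-Nd4, only 31.3% and 63.6% was matched, by Gm29216 and Gm28439. No annotated nuclear copy was found for mt-Nd1, mt-Nd2, mt-Nd5, mt-Nd6 or mt-Cytb. For mt-Atp8 no copy is annotated either, but the gene lies between mt-Co2 and mt-Atp6, whose copies are neighbours on chromosome 1, and it is grouped with them here. The first 60 bases of mt-Nd3 (chrM:9459-9518, + strand) and of its copy (chr1:24613060-24613119, - strand) show how close both places are. The difference T3C, counted from base 1 of mt-Nd3, is in capitals and was the only one found in the aligned part of that pair.
mt-Nd3: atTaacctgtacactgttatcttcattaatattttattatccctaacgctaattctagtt
Gm28438: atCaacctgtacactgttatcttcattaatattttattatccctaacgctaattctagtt

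Mitochondrial genes also overlap each other. The whole mt-Atp8 gene as annotated (chrM:7766-7969, + strand) is shown with the 43 bases it shares with mt-Atp6 in capitals. The whole mt-Nd4l gene (chrM:9877-10173, + strand), the member with the largest difference, is shown with the 7 bases it shares with mt-Nd4 in capitals. Mitochondrial mRNAs are counted here by annotated gene, and overlapping genes need not lie on separate RNA molecules.
mt-Atp8: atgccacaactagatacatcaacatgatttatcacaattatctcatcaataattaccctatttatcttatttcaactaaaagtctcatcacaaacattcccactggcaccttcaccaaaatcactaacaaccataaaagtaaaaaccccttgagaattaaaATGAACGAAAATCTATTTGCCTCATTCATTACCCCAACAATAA
mt-Nd4l: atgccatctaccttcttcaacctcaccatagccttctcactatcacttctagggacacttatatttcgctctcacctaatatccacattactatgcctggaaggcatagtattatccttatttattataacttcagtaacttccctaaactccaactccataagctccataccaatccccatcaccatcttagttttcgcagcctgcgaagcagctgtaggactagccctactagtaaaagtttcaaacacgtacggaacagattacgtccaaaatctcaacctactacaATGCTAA
On the opposite strand, mt-Nd6 shares 14 bases with mt-Nd5. The labels do not say whether strand was kept in counting, so reads from such shared bases cannot be assigned to a gene.

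The 13 mitochondrial mRNAs fell into 3 patterns over the 4 libraries. Those without a near-complete copy followed the replicate number, being higher in both libraries numbered 1. The most abundant member of all, mt-Co1, which encodes the catalytic subunit of complex IV, measured 10050 and 3986 FPKM in cKO libraries 1 and 2, against 9863 and 5659 FPKM in control libraries 1 and 2. For the complex III subunit cytochrome b, mt-Cytb measured 3376 and 1260 FPKM in cKO libraries, against 3149 and 1779 FPKM in control libraries. Among the complex I subunits, mt-Nd1 measured 4807 and 1791 FPKM in cKO libraries, against 4002 and 2180 FPKM in control libraries. In each of these genes the cKO library was at or above its control within number 1 and below it within number 2, so the groups overlapped. The same held for mt-Nd2 (1243 and 513 FPKM in cKO, 1125 and 602 FPKM in control) and mt-Nd6 (323 and 134 FPKM in cKO, 308 and 182 FPKM in control). For mt-Nd5 the values were 777 and 314 FPKM in cKO libraries against 791 and 456 FPKM in control libraries, nearly equal within number 1. The pooled log2 differences on log2(FPKM + 1) were -0.24 ± 0.96 for mt-Co1, -0.20 ± 0.71 for mt-Cytb and -0.28 ± 0.55 for mt-Nd5 (SE, n = 2 libraries each), each within its error, as were mt-Nd2 (-0.04 ± 0.59), mt-Nd6 (-0.18 ± 0.50) and mt-Nd1 (-0.01 ± 0.77). Their directions turned when single libraries were left out.

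The neighbouring genes mt-Co2, mt-Atp8, mt-Atp6 and mt-Co3 of the copied stretch showed the second pattern: they were high in control library 1 and far lower in the other 3 libraries, the second control included. The complex IV subunit gene mt-Co2 measured 444 and 207 FPKM in cKO libraries 1 and 2, against 5192 and 236 FPKM in control libraries 1 and 2. For mt-Co3, which encodes a further complex IV core subunit, 1008 and 419 FPKM were listed in cKO libraries, against 9078 and 487 FPKM in control libraries. The proton channel subunit of complex V is encoded by mt-Atp6, which measured 336 and 119 FPKM in cKO libraries, against 3944 and 165 FPKM in control libraries. All but mt-Atp8 overlapped between the genotypes. Even for mt-Atp8 (5.51 and 4.39 FPKM in cKO, 91.7 and 6.28 FPKM in control), control 2 lay beside the cKO libraries and not beside control 1. The implied reads for mt-Atp8 were 19 and 23 in cKO libraries and 322 and 30 in control libraries. The pooled log2 differences were -1.87 ± 1.39 for mt-Co2, -1.69 ± 1.36 for mt-Co3, -2.01 ± 1.45 for mt-Atp6 and -2.13 ± 1.102 for mt-Atp8. Without control replicate 1 they became 0.36, 0.42, 0.28 and -0.30, so the size rested on that library. Without control replicate 2, a fit that sets control 1 alone against both cKO libraries, they became -4.095, -3.801, -4.294 and -3.968.

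The third pattern was seen in mt-Nd3 and mt-Nd4l, which follow in the same stretch and encode small membrane subunits of complex I. Here both control libraries were high and both cKO libraries low. For mt-Nd3 the values were 277 and 559 FPKM in cKO libraries 1 and 2, against 3300 and 2108 FPKM in control libraries 1 and 2. For mt-Nd4l they were 7.57 and 13.5 FPKM in cKO libraries (37 and 102 implied reads), against 99.4 and 56.4 FPKM in control libraries (508 and 395 implied reads). The groups did not overlap in either gene, nor in mt-Atp8, where over all genes 16.6% had both cKO libraries below both controls. Log2 differences were -2.74 ± 0.53 for mt-Nd3 (-3.57 within number 1 and -1.91 within number 2) and -2.77 ± 0.38 for mt-Nd4l (-3.55 and -1.99), and were the largest of any member in either direction. Neither passed limma's test over all genes (adjusted p = 0.959 for both). With the replicate number as a block, a pairing that no label states, both passed (limma adjusted p = 0.0038 for mt-Nd4l and 0.0047 for mt-Nd3). Over all genes 1.98% passed as lower under that block. With a library left out, mt-Nd4l lay between -3.17 and -2.37 and mt-Nd3 between -3.25 and -2.24. Each of these fits leaves a lone library on one side, so that genotype and number are no longer balanced. The fits also share libraries and are not separate support.

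Levels relative to mt-Co1 in the same library, where any library-wide scale cancels, separate the patterns further. For mt-Cytb this ratio was 33.6% and 31.6% in cKO libraries 1 and 2, against 31.9% and 31.4% in control libraries 1 and 2. For mt-Nd6 it was 3.21% and 3.37% in cKO, against 3.13% and 3.21% in control. The ratio of mt-Nd5 was 7.73% and 7.87% in cKO, against 8.02% and 8.05% in control. These genes thus kept nearly constant proportions in all 4 libraries. By contrast mt-Co2 stood at 4.42% and 5.19% of mt-Co1 in cKO libraries, against 52.6% and 4.18% in control libraries. The ratio of mt-Nd3 was 2.75% and 14% in cKO libraries, against 33.5% and 37.2% in control libraries. Slightly higher in cKO was mt-Nd1, at 47.8% and 44.9% against 40.6% and 38.5% in control. The partly copied mt-Nd4 was lower, at 8.39% and 6.91% in cKO against 11.2% and 9.23% in control. Its FPKM were 844 and 275 in cKO libraries against 1104 and 522 in control libraries (log2 difference -0.65 ± 0.66).

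**Figure D1:**
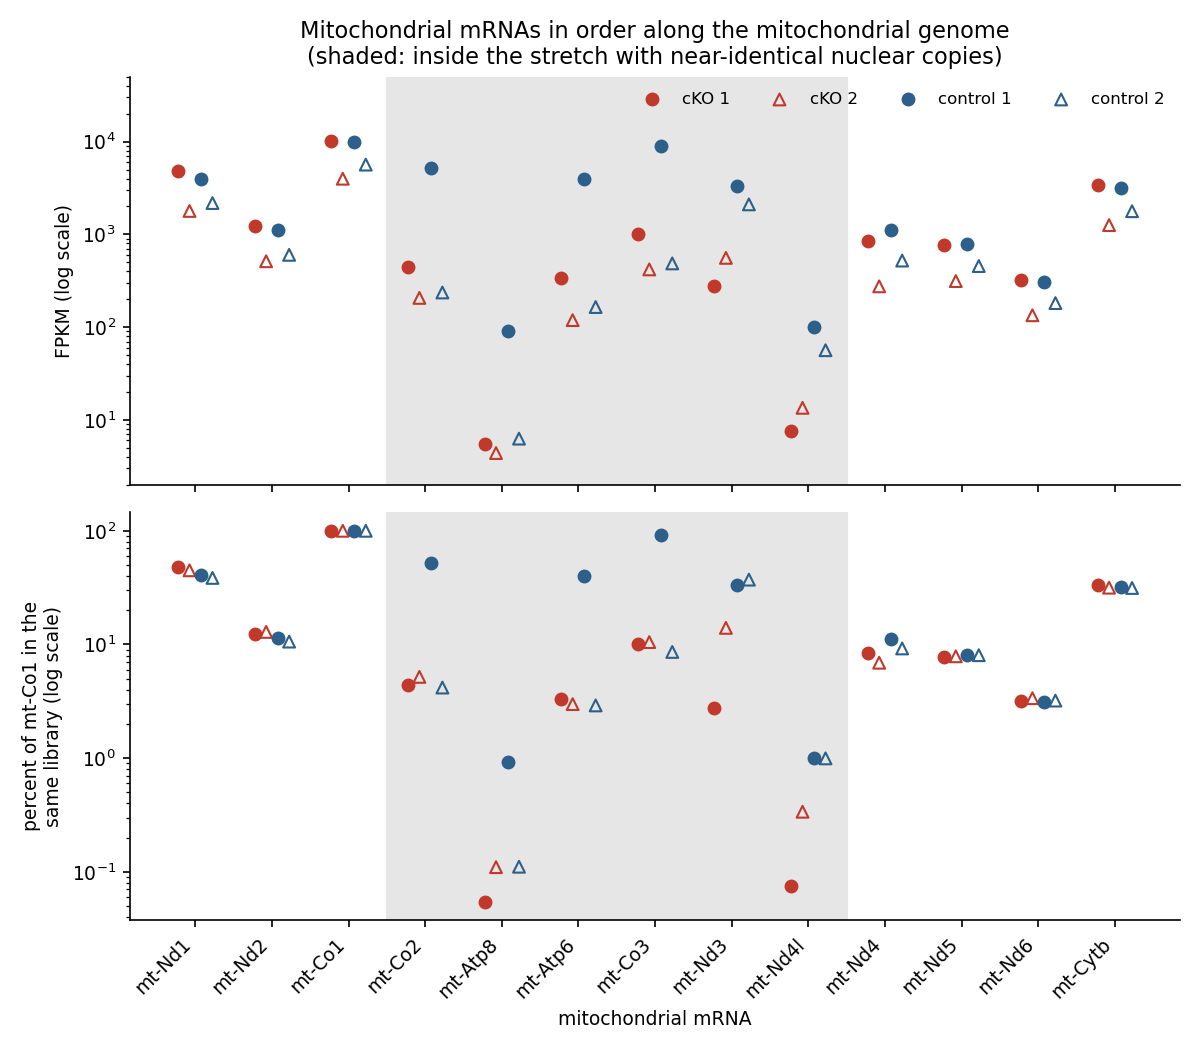
The upper panel plots FPKM (log axis) and the lower panel the level as a percentage of mt-Co1 in the same library (log axis) for the 13 mitochondrial mRNAs in genome order, with 1 point per library (red cKO, blue control, filled circles number 1, open triangles number 2). Outside the shaded copied stretch the percentages lie close together, while inside it mt-Co2, mt-Atp8, mt-Atp6 and mt-Co3 are high only in control 1, and mt-Nd3 and mt-Nd4l are high in both controls.

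The values listed for the nuclear copies were low in every library. Gm28661, the copy of mt-Co2, was listed at 11.2 and 4.11 FPKM in cKO libraries 1 and 2, against 11.2 and 6.27 FPKM in control libraries 1 and 2. Gm10925, the copy of mt-Atp6, was listed at 10.9 and 3.9 FPKM in cKO libraries, against 9.85 and 6.05 FPKM in control libraries. Both copies were thus higher in the libraries numbered 1, as mt-Co1 was. Whether these values stem from the copies or from mitochondrial RNA was not tested. Gm28438, the copy of mt-Nd3, was listed at 6.18 and 5.07 FPKM in cKO libraries, against 4.5 and 3.96 FPKM in control libraries, and Gm10222, the copy of mt-Nd4l, at no more than 0.13 FPKM. What was done with reads that match both places is not given in the sources used here, and the part of the copies in the low values was not tested. Values of the 6 mRNAs of the stretch are therefore uncertain. The mitochondrial ribosomal RNAs mt-Rnr1 and mt-Rnr2 were listed at 0 in every library.

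Most nuclear members behaved differently from most mitochondrial ones: they were higher in the libraries numbered 2 and somewhat higher in cKO within both numbers. Of the 13 mitochondrial mRNAs, 11 were lower in number 2 in both genotypes (33.0% of all genes). In cKO, 8 of the 13 were lower within both numbers (37.6% of all genes) and 0 higher (31.8% of all genes). Of the 83 nuclear members, 77 passed the filter of at least 1 FPKM in at least 2 libraries. Their mean levels ran from 2.92 to 672 FPKM. Those left out were complex IV isoforms of other tissues. The median log2 difference of the 77 was 0.20, with 0.20 within number 1 and 0.22 within number 2, beside a median of -0.03 over all genes tested. Leaving out control replicate 1 turned it to -0.05, and leaving out cKO replicate 2 to -0.04, both fits in which number 2 weighs more among the controls. It was 0.49 without cKO replicate 1 and 0.47 without control replicate 2. Single members moved likewise with a library left out, Uqcr10 between 0.61 and 1.31, Ndufa3 between 0.24 and 0.98, Cox8a between 0.21 and 0.89, and Cox6b1 between 0.14 and 0.70. Within both numbers, 53 of the 77 were higher in cKO and 6 lower, where over all genes 31.8% were higher and 37.6% lower within both. Both cKO libraries lay above both controls for 9 nuclear members (16.2% of all genes) and below both for 2 (16.6% of all genes). In both genotypes, 73 of the 77 were higher in library 2 than in library 1 (46.6% of all genes) and 1 was lower (33.0% of all genes), with a median of 0.54 in cKO and 0.48 in control on the log2 scale. The shift between numbers was thus larger than that between genotypes, and no nuclear member passed limma's test over all genes, of which 0 passed (0.0%). At an unadjusted p under 0.05 there were 2 nuclear members, both higher in cKO, and 2 mitochondrial members, both lower. Over all genes 3.29% were higher and 1.68% lower at that level. At least 1.5-fold higher within both numbers were 3 nuclear members, Uqcr10, Uqcrfs1 and Ndufa3 (3.44% of all genes), and 0 were 1.5-fold lower (3.87% of all genes). The smallest adjusted p of any member was 0.959. limma-voom on recovered reads also called 0 members. With the replicate number as a block, which no label states as a pairing, 11 nuclear members passed, all higher (4.53% of all genes passed as higher). So did 3 mitochondrial members, mt-Nd3, mt-Nd4 and mt-Nd4l, all lower (1.98% of all genes passed as lower).

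Complex III held the nuclear members with the largest differences. Uqcrfs1 (ENSMUSG00000038462, chr13:30540308-30545362), the Rieske iron-sulfur subunit that passes electrons on to cytochrome c1, measured 97.9 and 153 FPKM in cKO libraries 1 and 2, against 55.0 and 76.1 FPKM in control libraries 1 and 2. Uqcr10 (ENSMUSG00000059534, chr11:4701973-4704342), a small accessory subunit, measured 191 and 289 FPKM in cKO libraries, against 94.4 and 153 FPKM in control libraries. In both genes the 2 cKO libraries exceeded the 2 controls, and each cKO library was between 1.78 and 2.02 times its control of the same number. Log2 differences were 0.91 ± 0.32 for Uqcrfs1 and 0.96 ± 0.36 for Uqcr10 (limma adjusted p = 0.959 for both). Uqcrq, another small subunit and chosen after its values were seen, measured 43.4 and 67.3 FPKM in cKO libraries, against 29.2 and 39.0 FPKM in control libraries, again without overlap. The most abundant nuclear members were Uqcr11, at 250 and 384 FPKM in cKO against 176 and 271 FPKM in control, and the hinge protein gene Uqcrh, at 180 and 258 FPKM in cKO against 145 and 235 FPKM in control, and in both the groups overlapped. The core proteins had differences near 0: Uqcrc1 measured 94.6 and 145 FPKM in cKO libraries, against 110 and 138 FPKM in control libraries, and Uqcrc2 66.6 and 75.8 FPKM in cKO against 71.0 and 77.9 FPKM in control (both chosen after their values were seen). The median difference over the 8 members was 0.36, and 6 were higher within both numbers.

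In complex IV, cytochrome c oxidase, the subunits used by most tissues were abundant and the isoforms of other tissues close to 0. Cox6b1 measured 370 and 546 FPKM in cKO libraries 1 and 2, against 284 and 396 FPKM in control libraries 1 and 2, the highest mean among its nuclear members, and Cox6c 280 and 499 FPKM in cKO, against 222 and 370 FPKM in control. Both were higher in cKO within both numbers with overlapping groups (log2 differences 0.42 ± 0.36 and 0.38 ± 0.43). Cox6a1, the general form of subunit VIa, measured 240 and 319 FPKM in cKO libraries, against 166 and 216 FPKM in control libraries, and did not overlap (0.54 ± 0.30, limma adjusted p = 0.959), while its heart and muscle counterpart Cox6a2 stayed under 1 FPKM, at 0.45 and 0.89 FPKM in cKO against 0.44 and 0.26 FPKM in control. Cox8a measured 210 and 339 FPKM in cKO libraries, against 152 and 217 FPKM in control libraries (0.55 ± 0.36), and its muscle and brown fat counterpart Cox8b was listed at 0 in 3 libraries and at 0.21 FPKM in cKO 2. Cox7a2 measured 149 and 248 FPKM in cKO against 124 and 196 FPKM in control, beside the muscle form Cox7a1 at 0 and 0.53 FPKM in cKO against 0.95 and 1.06 FPKM in control. The difference was smaller for Cox4i1, at 226 and 414 FPKM in cKO libraries against 236 and 351 FPKM in control libraries (0.09 ± 0.41), whose lung form Cox4i2 did not exceed 0.53 FPKM. Cox6b2, a testis form, measured 1.49 and 4.11 FPKM in cKO against 1.35 and 4.75 FPKM in control, and Cox7b2 and Cox8c were listed at 0 throughout. Over the 12 members tested the median difference was 0.33, with 9 higher within both numbers and 0 lower.

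Complex I, the NADH dehydrogenase and the largest group, had a median difference of 0.20 over 36 nuclear members, with 26 higher and 1 lower within both numbers. The most abundant nuclear member by name, Ndufa4, was first described with complex I and later assigned to complex IV. It measured 253 and 375 FPKM in cKO libraries 1 and 2, against 178 and 209 FPKM in control libraries 1 and 2, without overlap (log2 difference 0.67 ± 0.32, limma adjusted p = 0.959). Ndufa3, an accessory subunit, measured 130 and 214 FPKM in cKO libraries, against 84.4 and 141 FPKM in control libraries, higher within both numbers (0.62 and 0.60) but with overlapping groups. The following were chosen after their values were seen. Ndufs1, the large iron-sulfur core subunit with a main transcript of 2661 bases and 19 exons, measured 43.9 and 38.8 FPKM in cKO libraries, against 45.1 and 40.6 FPKM in control libraries. It was the only nuclear member of complex I lower within both numbers. Ndufa12 went opposite ways, at 80.2 and 56.5 FPKM in cKO libraries against 43.2 and 81.8 FPKM in control libraries (0.88 within number 1 and -0.53 within number 2). Its main transcript of 566 bases carried that crossing, at 74.5 and 51.2 FPKM in cKO against 39.2 and 75.8 FPKM in control. A near-identical copy of Ndufa12, the pseudogene Gm15920, was listed at 9.72 and 22.8 FPKM in cKO libraries against 6.44 and 7.12 FPKM in control libraries, so its values are uncertain. Over all complexes, 28 nuclear members matched transcripts annotated under another symbol. Some of these are overlapping neighbours, and the match of Atp5sl is its own transcript, annotated as Dmac2, and not a copy. Gm10250, a pseudogene copy of Atp5h, was listed at 28.8 and 41.9 FPKM in cKO against 21.9 and 38.2 FPKM in control. The median difference was 0.18 for these 28 members, Atp5sl included, and 0.22 for the 49 others tested.

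Complex II, the only one wholly encoded in the nucleus, had mostly lower values in cKO. Sdha, the flavoprotein that oxidises succinate, measured 36.9 and 37.7 FPKM in cKO libraries 1 and 2, against 42.2 and 43.0 FPKM in control libraries 1 and 2. This was the only complex II gene whose groups did not overlap (log2 difference -0.19 ± 0.20, limma adjusted p = 0.959), and it barely differed between the replicate numbers. Sdhb, the iron-sulfur subunit, measured 35.2 and 62.7 FPKM in cKO, against 44.8 and 68.6 FPKM in control, and Sdhc, a membrane anchor, 13.1 and 17.3 FPKM in cKO, against 15.6 and 17.9 FPKM in control. These were lower within both numbers, whereas the other anchor, Sdhd, measured 41.7 and 66.6 FPKM in cKO and 45.3 and 60.7 FPKM in control (0.01 ± 0.31). The median over the 4 genes was -0.16, and whether complex II differed from the other complexes in its response was not tested.

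The ATP synthase of complex V had the most abundant nuclear member. Atp5b, the catalytic β subunit, measured 585 and 853 FPKM in cKO libraries 1 and 2, against 510 and 739 FPKM in control libraries 1 and 2, and the α subunit gene Atp5a1 297 and 433 FPKM in cKO, against 290 and 391 FPKM in control. Both were slightly higher within each number, by less than the spread between libraries (log2 differences 0.20 ± 0.41 and 0.09 ± 0.35). At the other end, Atp5s, which encodes a coupling factor and not a core subunit, measured 2.99 and 2.88 FPKM in cKO libraries, against 3.84 and 3.91 FPKM in control libraries, the lowest difference of all nuclear members tested at -0.31 ± 0.22 and the smallest p of the complex (limma adjusted p = 0.959). Atp5sl, whose transcript the annotation lists as Dmac2, was included by its name alone. Chosen after its values were seen, it went opposite ways within the numbers, at 4.76 and 12.1 FPKM in cKO against 6.30 and 8.20 FPKM in control. The median over the 17 members taken by name, Atp5s and Atp5sl among them, was 0.19, with 12 higher and 1 lower within both numbers.

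**Figure D2:**
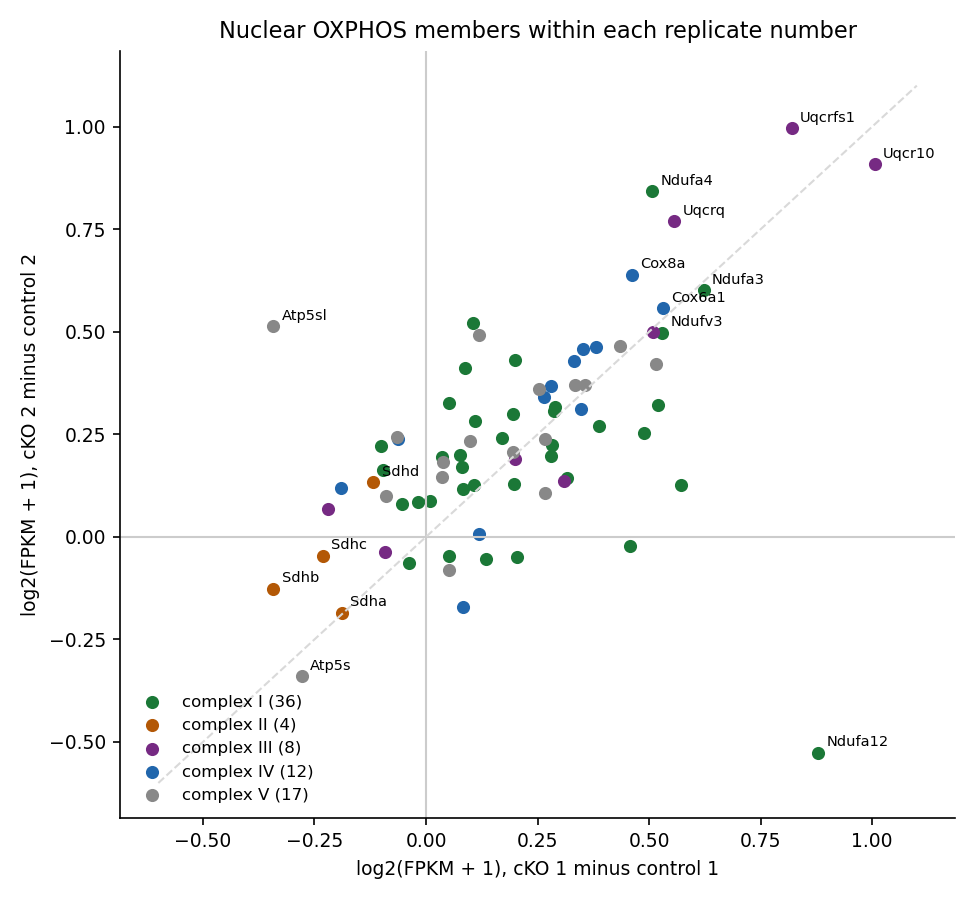
Each point is a nuclear member, placed by its log2(FPKM + 1) difference cKO 1 minus control 1 (x axis) and cKO 2 minus control 2 (y axis) and coloured by complex, with numbers of members in brackets and a dashed line of equality. Most points lie in the upper right, Uqcr10 and Uqcrfs1 farthest out, while Sdha, Sdhb, Sdhc and Atp5s lie in the lower left, Atp5sl lies in the upper left, and Ndufa12 lies alone at 0.88 and -0.53.

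**Figure D3:**
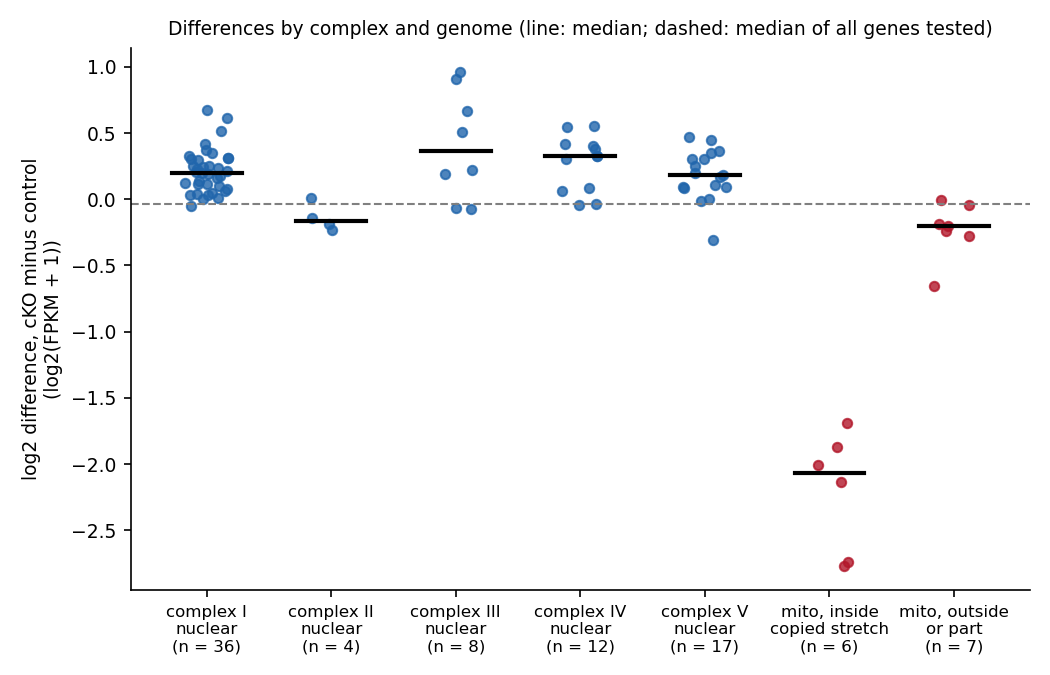
Points are the log2 differences (cKO minus control, on log2(FPKM + 1)) of the members tested, by complex for nuclear genes (blue) and by position for mitochondrial mRNAs (red). Black lines are group medians and the dashed line is the median of all genes tested, -0.03. The 6 mRNAs of the copied stretch lie between -2.77 and -1.69, and the 7 others between -0.65 and -0.01.

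Added up by complex, the nuclear members measured 2276 and 3147 FPKM for complex I in cKO libraries 1 and 2, against 1897 and 2606 FPKM in control libraries 1 and 2. Complex III came to 1053 and 1566 FPKM in cKO, against 794 and 1161 FPKM in control, and complex IV to 2089 and 3295 FPKM in cKO, against 1715 and 2513 FPKM in control. Complex V came to 2643 and 4043 FPKM in cKO, against 2322 and 3381 FPKM in control. Complex II alone was lower within both numbers, at 127 and 184 FPKM in cKO libraries against 148 and 190 FPKM in control libraries. All 83 nuclear members together summed to 8187 and 12236 FPKM in cKO, against 6875 and 9851 FPKM in control. These sums were given no test, since the members were chosen with earlier results known.

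The 7 mitochondrial mRNAs without a near-complete copy, mt-Co1 and mt-Nd4 among them although copied in part, summed to 21420 and 8273 FPKM in cKO libraries 1 and 2, against 20343 and 11380 FPKM in control libraries 1 and 2. The 5 with no annotated copy gave 10530 and 4012 FPKM in cKO, against 9376 and 5198 FPKM in control. Set against the nuclear sum of the same library, the 7 amounted to 2.62 and 0.676 times that sum in cKO, against 2.96 and 1.16 times in control. With all 13 mRNAs the ratios were 2.87 and 0.784 in cKO, against 6.12 and 1.47 in control, where the value of control 1 includes its high copied stretch. The mitochondrial to nuclear ratio was therefore lower in cKO within both numbers by either count, and lower in both libraries numbered 2 than in both numbered 1 by either count. On the log2 scale, cKO minus control was -0.997 with all 13 mRNAs and -0.48 with the 7. The value with all 13 was smaller than the SD between libraries of the same genotype, 1.39, and rested on single libraries: it was -1.93 without cKO replicate 1, -0.06 without cKO replicate 2, 0.03 without control replicate 1 and -2.03 without control replicate 2.

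**Figure D4:**
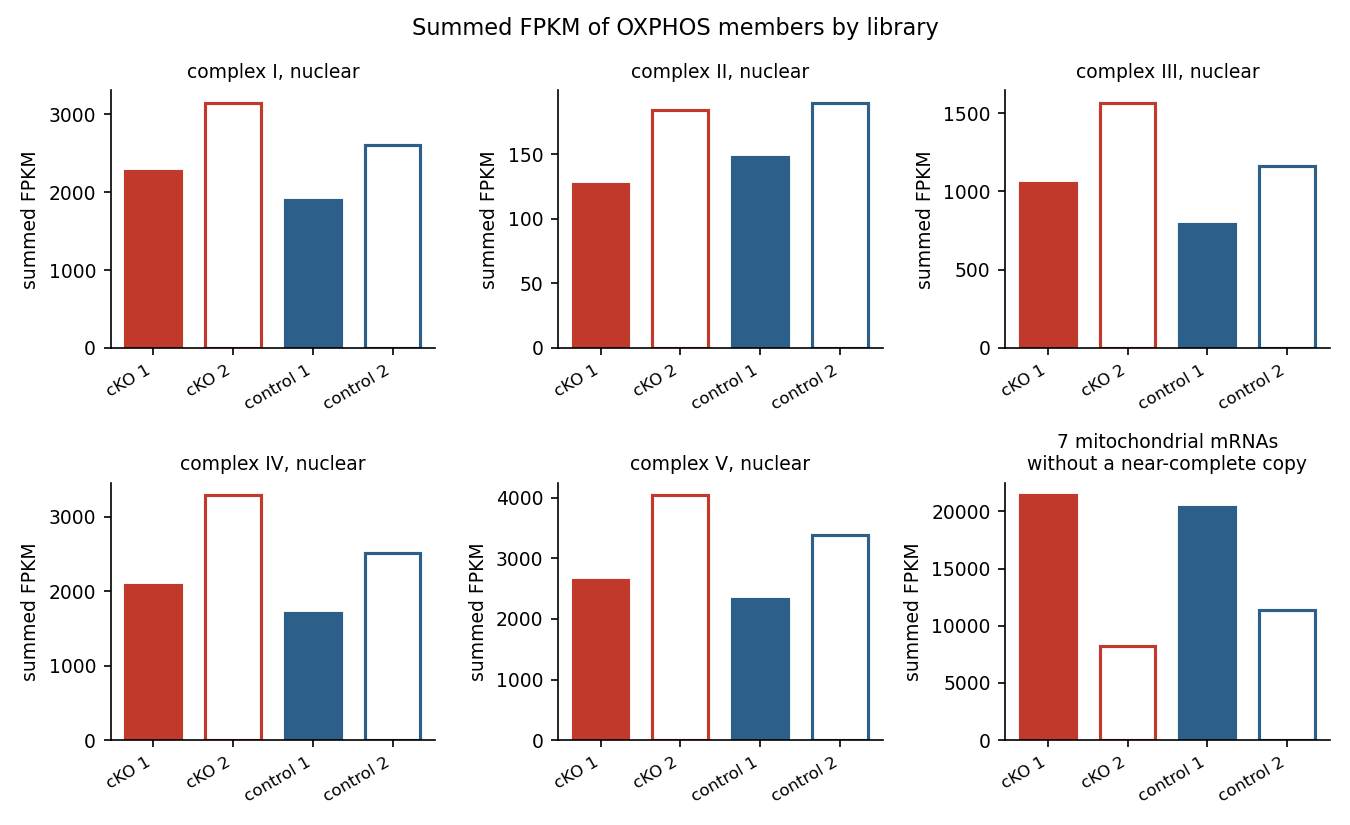
Bars give the summed FPKM of the nuclear members of each complex and of 7 mitochondrial mRNAs in each library (red cKO, blue control, filled number 1, open number 2), on axes that start at 0. Nuclear sums are higher in the libraries numbered 2 and the mitochondrial sum in those numbered 1. Within each number the cKO bar is higher for complexes I, III, IV and V, and lower for complex II.

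Nuclear members also varied with gene structure, which the choice by name did not use. The 44 members tested with up to 4 exons in their main transcript had a median difference of 0.31 (36 higher and 0 lower within both numbers), the 18 with 5 to 7 exons 0.15, and the 15 with 8 or more 0.03 (5 higher and 4 lower). Uqcr10 and Uqcrfs1 have 2 exons each, Sdha has 15, Uqcrc2 14 and Uqcrc1 13. Across the 77 members, Spearman's rho between exon number and the difference was -0.567, and between transcript length and the difference -0.635, given as a description over genes that share the same 4 libraries. The same order held over all tested genes with a protein-coding main transcript, whose medians were 0.12 with up to 4 exons, 0.04 with 5 to 7 and -0.07 with 8 or more. Of these genes, 1275 of the 2648 with up to 4 exons were higher and 629 lower in cKO within both numbers. Of the 6608 with 8 or more exons, 1731 were higher and 2830 lower. With the trend on transcript length over all genes removed, the nuclear median was 0.13. Of the FPKM of nuclear members, transcripts annotated as retained introns took 1.41% and 0.67% in cKO libraries 1 and 2, against 1.69% and 1.02% in control libraries 1 and 2, a share that was lower in cKO within both numbers and lower in the libraries numbered 2. Over all genes that share was 4.01% and 2.28% in cKO, against 4.66% and 2.83% in control. The part of RNA quality or maturity in these differences was not tested.

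**Figure D5:**
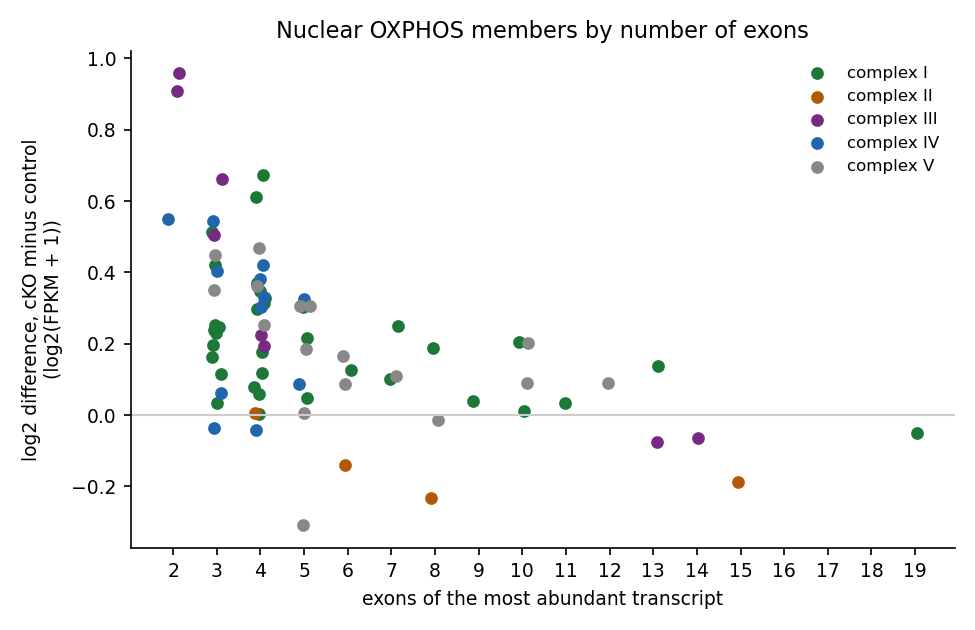
Each point is 1 of the 77 nuclear members tested, placed by the exons of its most abundant transcript (x axis, jittered) and its log2 difference cKO minus control on log2(FPKM + 1) (y axis), coloured by complex. Differences above 0.5 occur only at 4 exons or fewer, and members with 8 or more exons lie between -0.23 and 0.21.

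Promoters were examined because OXPHOS promoters are known for sites of NRF1, of ETS factors such as GABP, and of YY1. RefSeq promoters (GRCm38.p6, 250 bases before to 50 after the start) matched 66 of the 83 nuclear members by symbol. Both strands were searched for the NRF1 motif, for CCGGAAG (ETS) and for AAGATGGCG (YY1), none of which contains another. The NRF1 motif was found in 16 of 66 member promoters (24.2%) and in 4.78% of all 27025 promoters, the ETS letters in 15 (22.7%, against 9.12% of all) and the YY1 letters in 6 (9.09%, against 1.49% of all). Only exact matches were searched, apart from the free base of the NRF1 motif, so near matches were not counted. A match is a description and not a site in use. The comparison with all promoters was not limited to genes expressed here. Whether a match goes with the difference between genotypes was not tested. The promoter of Cox6a1 (chr5:115348909-115349208, - strand) held 2 matches to the NRF1 motif, which differ at a single free base. It then held 1 to the ETS letters on the opposite strand, and all are in capitals. That of Uqcr10 (chr11:4704295-4704594, - strand), the nuclear member with the largest difference, held no exact match, which does not exclude a near match.
Cox6a1: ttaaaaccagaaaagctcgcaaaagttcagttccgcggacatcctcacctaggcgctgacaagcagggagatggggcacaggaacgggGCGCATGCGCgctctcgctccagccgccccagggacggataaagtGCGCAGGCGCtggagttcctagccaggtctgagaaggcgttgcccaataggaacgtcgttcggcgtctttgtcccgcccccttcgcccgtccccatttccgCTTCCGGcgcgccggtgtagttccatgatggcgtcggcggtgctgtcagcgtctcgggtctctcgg
Uqcr10: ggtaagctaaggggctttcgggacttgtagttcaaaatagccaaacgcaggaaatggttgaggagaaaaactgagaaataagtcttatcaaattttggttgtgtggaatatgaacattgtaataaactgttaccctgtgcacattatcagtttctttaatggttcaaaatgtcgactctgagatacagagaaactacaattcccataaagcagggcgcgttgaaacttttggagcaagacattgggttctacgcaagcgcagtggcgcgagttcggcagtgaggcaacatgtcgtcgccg

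Genes that build, express or feed the respiratory chain were described from lists, and none of their members passed limma's test over all genes. With the replicate block, 8 of those named below passed, all higher in cKO: Ndufaf1, Ndufaf4, Coa7, Sco2, Timm13, Timm17a, Mterf4 and Esrra (limma adjusted p between 0.0047 and 0.0341). Over all genes 4.53% passed as higher under that block. The named genes were picked by the smallest p in these same data, so their passing is no separate support. Passes over the whole lists were not counted. Among 14 complex I assembly factors measured, 7 were higher and 2 lower within both numbers (median 0.09). Ndufaf1 measured 21.8 and 25.1 FPKM in cKO libraries 1 and 2, against 9.97 and 10.1 FPKM in control libraries 1 and 2, and Ndufaf4 23.3 and 17.1 FPKM in cKO, against 11.6 and 8.90 FPKM in control. In both the groups stood well apart (log2 differences 1.14 ± 0.20 and 0.91 ± 0.25, limma adjusted p = 0.959). Of 31 assembly factors of complexes II to V tested, 22 were higher and 2 lower within both numbers (median 0.25). Coa7, an assembly factor of complex IV, measured 9.75 and 14.3 FPKM in cKO libraries, against 3.74 and 4.72 FPKM in control libraries (1.30 ± 0.26). Its difference was 1.55 without cKO replicate 1 and 0.77 when only protein-coding transcripts were counted. Sco2, which delivers copper to the same complex, measured 5.69 and 4.89 FPKM in cKO, against 2.21 and 2.29 FPKM in control (0.95 ± 0.22). These 4 factors were named for having the smallest p of their lists. Over the whole lists, both cKO libraries lay above both controls for 6 of the 14 complex I factors and below both for 1. For the 31 factors of complexes II to V these counts were 11 and 1. Over all genes 16.2% lay above and 16.6% below.

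For protein import, 16 of 19 genes were higher and 0 lower within both numbers (median 0.36). Timm17a, a subunit of the inner membrane translocase, measured 27.0 and 33.2 FPKM in cKO libraries 1 and 2, against 16.6 and 17.2 FPKM in control libraries 1 and 2, and the small chaperone gene Timm13 41.6 and 64.1 FPKM in cKO, against 25.9 and 35.5 FPKM in control. Neither gene overlapped between the groups. Over the whole import list, both cKO libraries lay above both controls for 10 of 19 genes and below both for 0. Over all genes 16.2% lay above and 16.6% below. The 15 genes of mitochondrial DNA replication and transcription went the other way on balance, with 3 higher and 8 lower within both numbers (median -0.07). Mterf4, which acts in assembly of the mitochondrial ribosome, measured 21.0 and 27.7 FPKM in cKO, against 14.03 and 14.52 FPKM in control. Ssbp1, the single-strand DNA binding protein of mitochondria, measured 26.2 and 18.7 FPKM in cKO, against 28.2 and 29.5 FPKM in control. The groups did not overlap in either gene, but Ssbp1 differed little within number 1 (-0.10, against -0.63 within number 2). Of the 15 genes of that list, 2 had both cKO libraries above both controls and 5 had both below.

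Among 16 genes of mitochondrial RNA processing and stability, 6 were higher and 2 lower within both numbers (median 0.09). Mtpap, the mitochondrial poly(A) polymerase, measured 15.9 and 13.7 FPKM in cKO libraries 1 and 2, against 11.2 and 11.3 FPKM in control libraries 1 and 2, and Elac2, which trims tRNA 3' ends, 21.2 and 22.9 FPKM in cKO, against 16.2 and 18.5 FPKM in control. Of 8 biogenesis regulators tested, 6 were higher and 0 lower within both numbers (median 0.13). The nuclear receptor gene Esrra measured 17.9 and 25.9 FPKM in cKO, against 12.5 and 15.5 FPKM in control, and the lysosomal and mitochondrial regulator gene Tfeb 6.86 and 7.97 FPKM in cKO, against 4.27 and 6.73 FPKM in control. In all 4 the groups did not overlap. Over the whole lists, both cKO libraries lay above both controls for 6 of the 16 processing genes and 3 of the 8 regulators, and below both for 1 and 0, where over all genes 16.2% lay above and 16.6% below.

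The fuel pathways had medians nearer 0 than protein import. Of 17 genes of the TCA cycle and pyruvate dehydrogenase, 8 were higher and 5 lower within both numbers (median 0.05), with Ogdh, a subunit of oxoglutarate dehydrogenase, at 84.6 and 80.3 FPKM in cKO libraries 1 and 2 against 68.7 and 60.6 FPKM in control libraries 1 and 2. Suclg2, a subunit of succinyl-CoA ligase, measured 18.02 and 20.79 FPKM in cKO, against 21.32 and 27.15 FPKM in control. Of 17 glycolytic genes, 12 were higher and 0 lower within both numbers (median 0.15, but 0.04 within number 1 and 0.24 within number 2). Hk2, a hexokinase, measured 27.5 and 30.7 FPKM in cKO, against 19.6 and 23.9 FPKM in control, and the phosphofructokinase gene Pfkp 30.7 and 31.1 FPKM in cKO, against 25.8 and 25.6 FPKM in control. In Ogdh, Suclg2, Hk2 and Pfkp the groups did not overlap. Over the whole lists, both cKO libraries lay above both controls for 4 of the 17 TCA genes and 2 of the 17 glycolytic genes, and below both for 2 and 0, beside 16.2% above and 16.6% below over all genes. Among subunits and carriers that the name rule leaves out, Ndufab1, the acyl carrier protein that also sits in complex I, measured 18.7 and 23.8 FPKM in cKO, against 18.01 and 17.46 FPKM in control. Ndufa4l2, a paralogue of Ndufa4, was lower in both cKO libraries than in both controls, at 38.96 FPKM in cKO 1 against 51.2 FPKM in control 1 and with a similar difference within number 2 (log2 difference -0.37 ± 0.24). Ndufa4 and its paralogue thus lay on opposite sides of 0, a contrast between the genes that was not tested.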

How the data were processed

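RNA from 2 cKO and 2 control libraries had been sequenced, and the authors deposited 1 table of values per transcript whose header names no unit. They are read as FPKM, as deposited by the authors: value times transcript length, divided by 1000, summed to between 1015550 and 1021998 per library. FPKM and RPKM cannot be told apart. Per the submitters' processing notes, fastp, HISAT2, HTSeq and GRCm38 were used, with no role, order or version; how multiply mapped reads were treated is not given in the sources used here. Per the labels' protocols, either poly(A) capture or removal of ribosomal RNA came first, and which is not said. Columns named WT were matched to the control libraries by replicate number. In 162 rows symbols had become dates, and all 162 were restored by transcript ID. Implied depths made 95.3% to 96.3% of low values whole, within 0.2 reads, and the number of reads limits precision for rare transcripts.

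FPKM were summed per symbol. The 13817 genes that reached 1 FPKM in 2 or more libraries were tested on log2(FPKM + 1), which understates changes of low genes, with limma 3.58.1 (R 4.3.3), a mean-variance trend, genotype as the only term, and Benjamini-Hochberg adjustment over all genes at 0.05. The script was tested on simulated data. Copies were searched with BLAST+ 2.17.0 (at least 98% identity over 100 bases). Named genes were all mitochondrial mRNAs, per complex the 2 most abundant and the smallest p, the 3 largest rises and falls without overlap, isoform pairs, and the 2 smallest p of each related list. Where falls without overlap were fewer than 3, all are given. Members and lists were chosen with earlier results of these data known. The replicate numbers are not stated to pair libraries, so the block is an alternative only.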

Additional observations from a re-analysis of the deposited data

How the results depend on the processing

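The numbers of called genes depended on the replicate number. With the replicate block, a pairing that no label states, 900 genes passed over all genes tested, among them 11 nuclear members and 3 mitochondrial mRNAs, against 0 of each without it. With a library left out, 9 to 71 genes passed, 0 nuclear members in any fit and 1 to 6 mitochondrial mRNAs. These fits have 1 library in a group, assumed to vary like the other. Both medians turned sign without cKO replicate 2 and without control replicate 1: the nuclear median lay between -0.051 and 0.49 with a library left out, the mitochondrial median between -1.46 and 0.196 (-0.199 for the 7 mRNAs without a near-complete copy, a choice made after seeing the data), and the log2 ratio of mitochondrial to nuclear sums between -2.027 and 0.034. Of 507 values of 51 named genes under the 10 other settings, 486 kept direction and side of the threshold, 18 passed under the block and 3 turned direction: mt-Nd1 (0.011 with limma-voom) and Sdhd (-0.049 with equal FPKM sums, -0.029 with the length trend removed). Direction turned in at least 1 fit without a library, with these ranges, for mt-Co1 (-0.906 to 0.428), mt-Nd1 (-0.721 to 0.702), mt-Cytb (-0.909 to 0.512), mt-Nd2 (-0.68 to 0.594), mt-Nd5 (-0.934 to 0.372), mt-Nd6 (-0.814 to 0.445), mt-Nd4 (-1.46 to 0.151), mt-Atp6 (-4.294 to 0.278), mt-Co2 (-4.095 to 0.356), mt-Co3 (-3.801 to 0.418), Cox6b2 (-0.689 to 0.602), Cox4i1 (-0.347 to 0.523), Cox6c (-0.035 to 0.795), Cox7a2 (-0.062 to 0.668), Sdhd (-0.325 to 0.34), Sdhb (-0.643 to 0.175), Uqcrh (-0.12 to 0.567), Atp5a1 (-0.18 to 0.362) and Atp5b (-0.07 to 0.474). The cause was not tested.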
